A study of Mus musculus with 16 samples.

Results

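The genes of the actomyosin cytoskeleton and of focal adhesions were followed across 5 groups of mouse embryonic stem (ES) cells in which Tgif1 or Tgif2 had been perturbed. A list of 39 genes was set by name, with earlier results of these data known. Its shares beside those of all genes therefore carry no test. Of the 39 genes, 38 had at least 1 probe set mapped to exactly 1 gene symbol and were measured, among 12393 genes in all. Myh10, which encodes a non-muscle myosin II heavy chain, had no such probe set and is not analysed here. Where a gene had several probe sets, the one brightest on average over the arrays stood for it, and no filter on low values was applied, so all 38 entered every test.

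Actin filaments are pulled by non-muscle myosin II, steadied by tropomyosins, calponins and transgelins, and anchored at the membrane through focal adhesions, where vinculin, talin, paxillin and zyxin link them to integrins. Many of these genes carry CArG boxes, the DNA element bound by serum response factor (SRF). SRF is switched on with its MRTF cofactors when free actin monomers are used up, so filament assembly feeds back on transcription of the filament's own parts. ES cells on gelatin grow as compact colonies with a ring of cortical actin, and many genes of this class are known to rise when such cells spread or differentiate. Tgif1 and Tgif2 encode homeodomain repressors that bind Smad proteins and the DNA core TGTCA.

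The cells were the J1 line, grown on gelatin without a feeder layer named in the labels, in medium with serum and leukemia inhibitory factor. The 16 arrays fell into 5 groups. Tgif1 knockdown (Tgif1 KD) and its control (shControl) had 2 arrays each. The arrays labelled Tgif1 OE, the arrays labelled Tgif2 OE and their shared control (BirA control, with the genotype label BirA OE) had 4 arrays each. OE stands for overexpression, and BirA is a bacterial biotin ligase. The labels used here name no vector, promoter, hairpin or clone. Separate cultures are not stated for the replicates, so p-values rest on a spread between arrays that may be technical. All levels below are log2 intensities of 1 probe set, all changes are log2 differences between group means with their standard error, and levels of different genes are not set against each other. The threshold is an adjusted p under 0.05.

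Tgif1 stood at 7.46 and 7.12 on Tgif1 KD arrays, against 10.71 and 10.66 on shControl arrays, a change of -3.39 ± 0.10 (adjusted p = 3.88e-11). Against its label, the Tgif1 OE group had a lower Tgif1 signal than BirA control (-0.58 ± 0.07, 5.52e-05). On the arrays labelled Tgif2 OE the Tgif2 probe set gave 0.11 ± 0.07 (0.208). Whether these probe sets see the transgenes is not known here, so both groups are named by their labels and no direction of Tgif1 or Tgif2 dose is drawn from them. None of the 9 measured ES cell markers was in the lower tercile of genes in any group. The deposited values of the Tgif2 OE arrays were shifted upward: the median change of all genes was 0.12 against BirA control and -0.10 for Tgif1 OE against Tgif2 OE, so changes in those comparisons are given relative to that median, with counts after quantile normalization beside them. In the overexpression arm, replicates 1 and 2 stood apart from replicates 3 and 4, and results that rest on it are given within each pair. The 5′ minus 3′ difference of the Gapdh control probe sets, a measure of RNA integrity and labelling, moved with the pairs in each group. In Tgif1 OE it was -0.24 and -0.34 in the first pair and -0.02 and -0.08 in the second. In Tgif2 OE it was -0.17 and -0.19, then -0.04 and -0.06, and in BirA control -0.11 and -0.13, then -0.05 and -0.04. Its part in the results was not tested.

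Since many genes of this class, though not all, are known targets of SRF, promoter windows that hold a CArG box are shown first. RefSeq promoter windows (GRCm38.p6, 250 bases before to 50 after a transcription start) were at hand for 33 of the 38 genes, 40 windows in all. None was at hand for Actg2, Actb, Tagln, Pxn and Parva. A CArG box, searched on both strands, lay in 8 of the 33 genes (24.2%), against 173 of 9887 genes on the array with a window (1.75%). Counted by window, these were 22.5% and 1.47%, and 1.63% of all 32851 windows in the table. The 8 genes were Srf, Myl9, Cnn2, Vcl, Fhl1, Fhl2, Actg1 and Lima1, of which Fhl2 is not printed below. TGTCA, searched on both strands and unable to share letters with the box, lay in 16 of the 33 genes (48.5%), against 42.9% of the 9887. A match is only a run of letters in this window, and the genes were chosen for a role that SRF is known for, so the share carries no test. The stretches below lie before the annotated start, are written 5′ to 3′ on the gene's strand, and have the CArG box in capitals. They are at chr17:46556175-46556284 (minus strand) for Srf, chr2:156775263-156775352 (plus) for Myl9, chr10:79988504-79988593 (plus) for Cnn2, chr14:20929148-20929220 (plus) for Vcl, chrX:56779541-56779630 (plus) for Fhl1, chr11:120348536-120348625 (minus) for Actg1 and chr15:99820150-99820236 (minus) for Lima1.
Srf: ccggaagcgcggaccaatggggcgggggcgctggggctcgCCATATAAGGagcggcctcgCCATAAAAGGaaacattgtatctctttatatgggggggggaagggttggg
Myl9: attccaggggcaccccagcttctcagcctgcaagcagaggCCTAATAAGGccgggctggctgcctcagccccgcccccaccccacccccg
Cnn2: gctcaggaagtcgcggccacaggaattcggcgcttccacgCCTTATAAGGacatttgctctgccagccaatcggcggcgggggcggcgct
Vcl: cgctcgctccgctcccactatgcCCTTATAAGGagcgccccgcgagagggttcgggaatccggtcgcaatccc
Fhl1: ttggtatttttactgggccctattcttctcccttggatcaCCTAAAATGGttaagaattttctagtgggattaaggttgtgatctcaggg
Actg1: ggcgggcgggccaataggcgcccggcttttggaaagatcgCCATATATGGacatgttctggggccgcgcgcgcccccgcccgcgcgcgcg
Lima1: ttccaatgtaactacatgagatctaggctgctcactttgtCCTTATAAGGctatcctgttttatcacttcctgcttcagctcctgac

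The Srf stretch holds 2 boxes, and Cnn2, Vcl and Lima1 carry the same box. The box begins 47 bases before the annotated start in Lima1, 56 in Cnn2, 90 in Actg1, 102 in Fhl1, 161 in Myl9 and 227 in Vcl. These genes behaved differently in the arrays, as described below: Myl9, Cnn2, Vcl, Fhl2 and Srf were higher in both overexpression groups, Fhl1 in the group labelled Tgif2 OE, and Actg1 by at most 0.21 on the log2 scale in either. Lima1 did not pass in Tgif1 OE (-0.07, adjusted p = 0.789) or in Tgif2 OE (deposited 0.26, 0.152).

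The first comparison asked how these genes differed between the arrays labelled Tgif1 OE and BirA control. Of the 38 genes, 20 rose and 0 fell (52.6%), while 20.9% of all 12393 genes passed, 11.4% higher and 9.51% lower. The median change of the 38 was 0.45, beside 0.01 for all genes, and 10 of the 20 changed at least 2-fold. In 24 of the 38 every array labelled Tgif1 OE lay above every BirA control array, which 12.5% of all genes did, and in 0 every array lay below (10.6%, and 23.1% either way). The largest rises were those of the smooth muscle-type genes Tagln, Myl9, Cnn1 and Acta2, while the abundant cytoplasmic actins Actb and Actg1 did not pass the threshold.

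Among the filament-binding genes, Tagln encodes transgelin, an actin-binding protein typical of smooth muscle. It stood at 10.03, 10.15, 10.91 and 10.90 on the arrays labelled Tgif1 OE, against 6.65, 6.98, 7.35 and 7.08 on BirA control arrays. The groups lay far apart, and the change of 3.48 ± 0.36 corresponds to 11.2-fold (adjusted p = 1.14e-05). Cnn1, the smooth muscle calponin, had 7.16, 6.69, 7.40 and 7.57 on Tgif1 OE arrays and 5.29, 5.38, 5.13 and 4.89 on BirA control arrays, again without overlap (2.04 ± 0.22, 1.81e-05). Cnn2, a calponin of non-muscle cells, was at 10.19, 10.20, 10.29 and 10.26 in the group labelled Tgif1 OE and at 9.0, 9.04, 9.04 and 9.04 in BirA control (1.21 ± 0.11, 2.34e-06). Both groups were tight for Cnn2, and its gap was about as wide in each array pair, 1.18 in replicates 1 and 2 and 1.24 in replicates 3 and 4.

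Caldesmon, encoded by Cald1, restrains myosin on the filament. Its levels were 9.30, 9.16, 10.08 and 10.15 on arrays labelled Tgif1 OE, against 8.01, 7.85, 8.14 and 8.19 on BirA control arrays (1.62 ± 0.32, 0.00180). Replicates 3 and 4 were the higher ones, yet no array overlapped. Of the tropomyosins, which coil along the filament, Tpm1 had 10.20, 10.21, 10.82 and 10.72 in the group labelled Tgif1 OE and 8.93, 9.04, 8.95 and 8.97 in BirA control (1.51 ± 0.20, 7.94e-05). Tpm2 had 9.63, 9.46, 10.01 and 10.06 on Tgif1 OE arrays and 8.64, 8.52, 8.90 and 8.98 on BirA control arrays (1.03 ± 0.19, 0.00137). Tpm4 rose by 0.76 ± 0.16 (0.00372). Tpm3 gave 0.03 ± 0.05 (0.806), and did not pass. The remaining filament-binding genes missed the threshold, Cnn3 at 0.09 and Tagln2 at 0.31 (0.317, and 0.0118 with the replicate number as a block).

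Of the actins, only the smooth muscle isoform Acta2 passed. It stood at 6.87, 6.90, 8.0 and 7.86 in the group labelled Tgif1 OE, against 5.52, 5.46, 5.85 and 5.79 in BirA control (1.75 ± 0.31, 0.000989). Actb, the cytoplasmic beta-actin, was at 14.12, 14.12, 14.09 and 14.10 on Tgif1 OE arrays and 14.07, 14.06, 14.06 and 14.02 on BirA control arrays. The groups did not overlap, but the change was 0.06 ± 0.04 (0.414). Actg1, the cytoplasmic gamma-actin, had 14.07, 14.04, 14.10 and 14.07 on Tgif1 OE arrays, against 13.92, 13.97, 13.95 and 13.95 in BirA control (0.12 ± 0.04, 0.0700). Actb and Actg1 lay near the highest value on any array, 14.79, and whether a change shows in full there was not tested. A second, dimmer Actb probe set gave -0.30 ± 0.25 (0.481 in a fit of all probe sets). Actg2, an enteric smooth muscle actin, was dim in every group: 3.44, 3.41, 3.37 and 3.28 on Tgif1 OE arrays and 3.69, 3.60, 3.20 and 3.47 on BirA control arrays (-0.12 ± 0.10, 0.468).

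Of the myosin genes, Myl9, the regulatory light chain whose phosphorylation turns myosin II on, was at 8.64, 8.48, 8.81 and 8.81 on arrays labelled Tgif1 OE and at 5.36, 5.98, 6.12 and 5.99 on BirA control arrays. This is a change of 2.82 ± 0.29, or 7.06-fold (8.62e-06), the second largest of the 38. Myh9, the heavy chain it works with, gave 0.23 ± 0.09 (0.0877, and 0.0223 with the replicate block). Of the crosslinkers, Flna, which encodes filamin A, rose by 0.40 ± 0.13 (0.0482), the weakest of the 20 calls. Its groups overlapped, it was lost without any 1 of 10 of the 16 arrays (at most 0.141, without BirA control replicate 4), and with array pair entered as a random block its adjusted p was 0.105. The alpha-actinin genes Actn1 (-0.02, 0.929) and Actn4 (0.04, 0.846) did not pass.

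Focal adhesion genes rose in 4 of 7 cases. Zyx, whose product zyxin reinforces stretched filaments, stood at 7.08, 7.20, 6.96 and 6.91 in the group labelled Tgif1 OE and at 6.04, 5.96, 6.02 and 6.18 in BirA control (0.99 ± 0.14, 0.000120). Vcl, which encodes vinculin, had 10.58, 10.51, 10.64 and 10.71 on Tgif1 OE arrays and 9.82, 9.89, 9.74 and 9.71 on BirA control arrays (0.82 ± 0.085, 1.01e-05). Neither gene showed any overlap. Ilk, the integrin-linked pseudokinase, rose by 0.57 ± 0.07 (6.50e-05), and Tes, a LIM protein of adhesions, by 0.50 ± 0.15 (0.0266), a call lost without Tgif1 OE replicate 3 (0.0874) or 4 (0.0806), without BirA control replicate 2 (0.0673) or 4 (0.0551), and with array pair entered as a random block (0.0626). Parva (0.47, 0.139, and 0.0416 with the block), the talin gene Tln1 (0.11, 0.405) and the paxillin gene Pxn (-0.11, 0.348) did not pass.

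LIM and PDZ-LIM adaptors sit on filaments and adhesions and respond to tension. Pdlim7 stood at 9.62, 9.66, 9.38 and 9.40 in the group labelled Tgif1 OE and at 8.38, 8.50, 8.27 and 8.20 in BirA control (1.18 ± 0.09, 5.83e-07). Csrp1 had 8.76, 8.74, 9.24 and 9.19 on Tgif1 OE arrays and 8.18, 8.06, 8.09 and 7.96 on BirA control arrays (0.91 ± 0.19, 0.002505). Fhl2 had 6.36, 6.53, 6.59 and 6.62 on Tgif1 OE arrays and 5.70, 5.88, 5.78 and 5.94 on BirA control arrays (0.70 ± 0.13, 0.00101). These 3 rose without overlap, whereas Fhl1, at 9.03, 9.0, 9.07 and 9.09 on Tgif1 OE arrays, against 8.85, 8.94, 8.94 and 8.93 in BirA control, did not pass (0.13 ± 0.05, 0.0963). Pdlim1 (0.03) and Lima1 (-0.07), which encodes the actin-bundling protein eplin, did not pass either.

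At the membrane, Anxa1, a calcium-dependent phospholipid-binding annexin, stood at 8.33, 8.27, 9.35 and 9.40 on arrays labelled Tgif1 OE and at 7.47, 7.48, 7.79 and 7.79 on BirA control arrays (1.21 ± 0.28, 0.00637). Of the ezrin-radixin-moesin genes, whose products tie the cortex to the membrane, Msn rose by 0.29 ± 0.05 (0.00112), while Ezr (0.09, 0.235) and Rdx (-0.06, 0.533) did not pass. Srf itself was at 8.93, 8.85, 8.76 and 8.63 in the group labelled Tgif1 OE and at 8.52, 8.29, 8.09 and 8.12 in BirA control. No array overlapped, and the change was 0.54 ± 0.10 (0.00104).

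**Figure D1:**
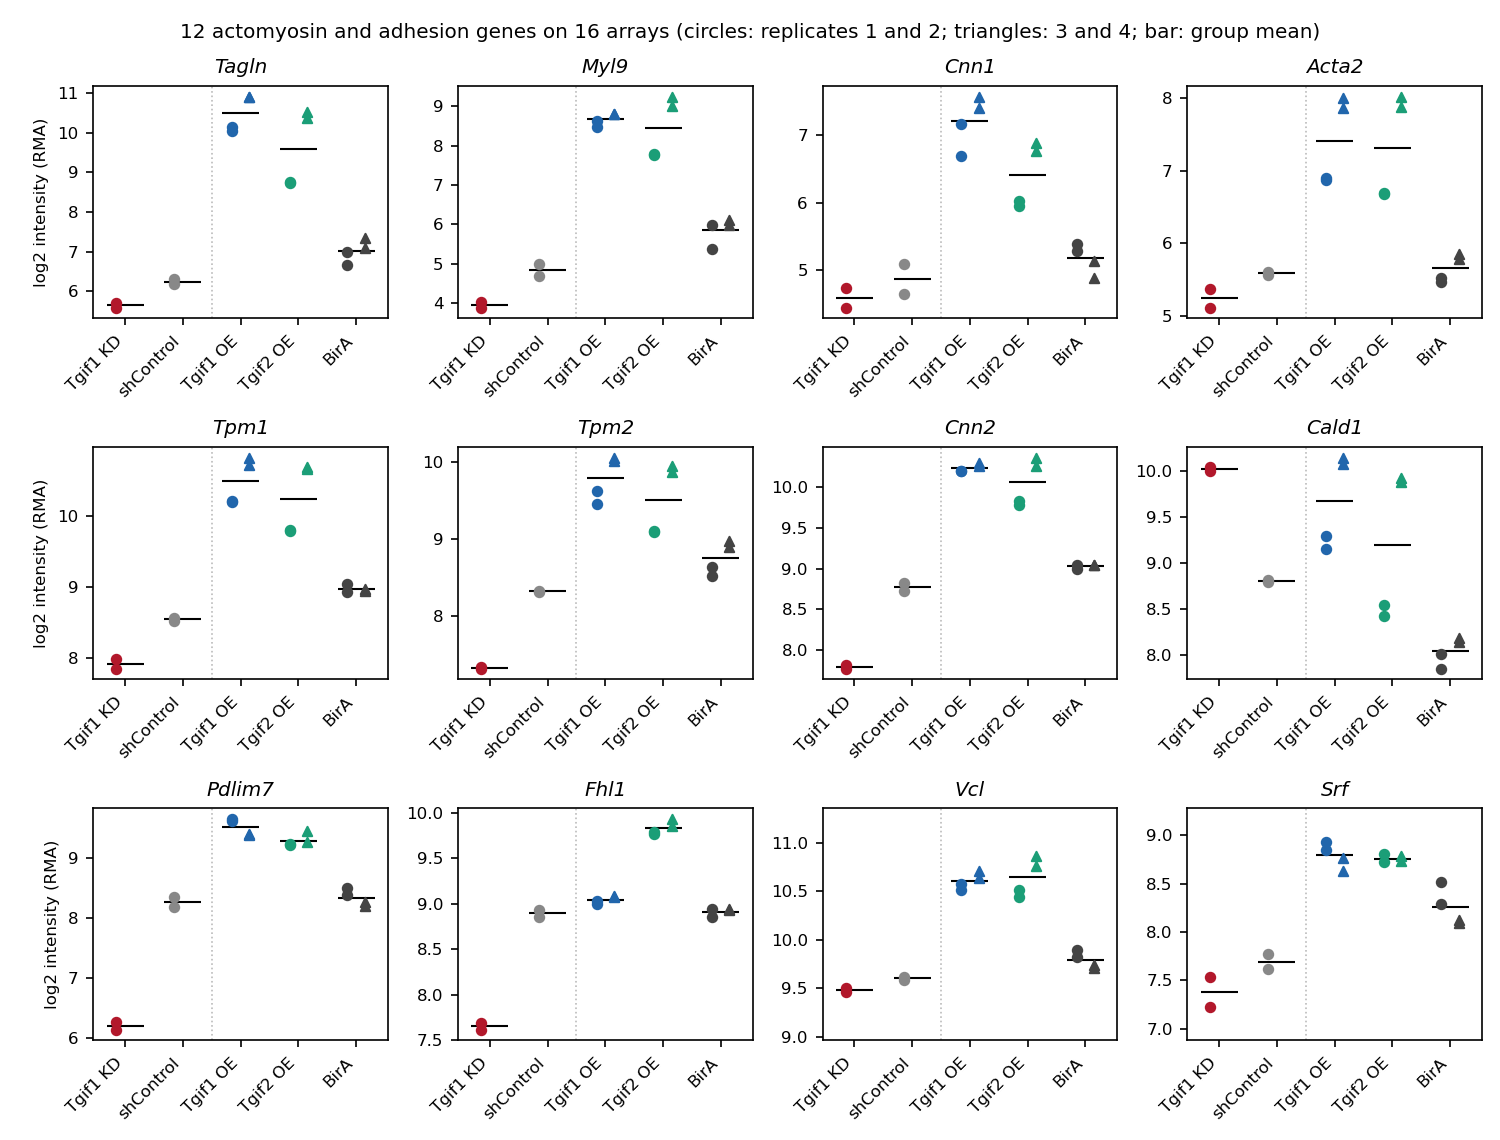
Log2 intensity (vertical axes, a separate range for each gene) of 12 genes on the 16 arrays, by group from left to right (Tgif1 KD, shControl, Tgif1 OE, Tgif2 OE, BirA control). Each point is 1 array, circles mark replicates 1 and 2, triangles replicates 3 and 4, and the bar is the group mean. Tagln, Myl9, Cnn1 and Acta2 stood higher on all 8 arrays labelled OE than on all 4 BirA control arrays, and Pdlim7 and Fhl1 stood lowest in Tgif1 KD.

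The arrays labelled Tgif2 OE were compared with the same 4 BirA control arrays, so their values stand beside those above and are no independent repeat. Of the 38 genes, 29 rose and 0 fell on the deposited values, and 22 rose and 0 fell after quantile normalization (57.9%). Of all genes, 35.4% passed as deposited, 28.7% higher and 6.69% lower, and 26.9% after quantile normalization, 13.8% higher and 13.0% lower. The median of the 38 lay 0.39 above that of all genes, and in 28 no array overlapped with the Tgif2 OE group higher (26.4% of all genes), and in 0 with it lower (6.23%, and 32.6% either way). The 7 genes that passed only on the deposited values were Actb, Actg2, Tpm3, Cnn3, Myh9, Pdlim1 and Ezr.

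Myl9 stood at 7.80, 7.75, 9.0 and 9.25 in the group labelled Tgif2 OE, against 5.36, 5.98, 6.12 and 5.99 in BirA control. The change lay 2.46 above the median of all genes (deposited 2.58 ± 0.29, adjusted p = 1.22e-05). Tagln had 8.76, 8.72, 10.36 and 10.52 on Tgif2 OE arrays and 6.65, 6.98, 7.35 and 7.08 on BirA control arrays, a change 2.46 above that median (deposited 2.57 ± 0.36, 9.06e-05). Both were well clear of BirA control, and both were higher in replicates 3 and 4. Cnn1 was at 6.03, 5.95, 6.76 and 6.88 on arrays labelled Tgif2 OE, against 5.29, 5.38, 5.13 and 4.89 in BirA control (relative change 1.12, deposited 1.24 ± 0.22, 0.000651). Acta2 was at 6.69, 6.68, 8.02 and 7.87 in that group, against 5.52, 5.46, 5.85 and 5.79 in BirA control (relative change 1.54, deposited 1.66 ± 0.31, 0.000933).

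Other filament, adhesion and membrane genes also rose. Tpm1 was at 9.79, 9.80, 10.66 and 10.69 on Tgif2 OE arrays (relative change 1.14, adjusted p of the deposited change 0.000220). Anxa1 was at 8.33, 8.35, 9.31 and 9.34 (1.08, 0.00428) and Cald1 at 8.43, 8.55, 9.88 and 9.93 (1.03, 0.0109). For Anxa1, Cald1 and Tpm1 no array overlapped with the BirA control values given above. Cnn2 was at 9.78, 9.83, 10.26 and 10.36 (0.91, 6.47e-06), Pdlim7 at 9.23, 9.22, 9.27 and 9.45 (0.83, 2.16e-06) and Vcl at 10.44, 10.51, 10.86 and 10.76 (0.74, 5.31e-06). Fhl2 was at 6.28, 6.46, 7.01 and 6.83 (0.70, 0.000181), and Srf, at 8.72, 8.80, 8.73 and 8.78, had a relative change of 0.38 (0.00110).

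Fhl1, which had not passed in Tgif1 OE, rose here. It stood at 9.79, 9.77, 9.86 and 9.94 on arrays labelled Tgif2 OE, against 8.85, 8.94, 8.94 and 8.93 on BirA control arrays, a relative change of 0.80 (deposited 0.92 ± 0.05, 4.83e-08). The other genes past the threshold after quantile normalization were Tpm2, Csrp1, Tpm4, Tes, Flna, Zyx, Msn, Ilk and Actg1, with relative changes between 0.09 for Actg1 and 0.69 for Csrp1. Tagln2, Actn1, Actn4, Tln1, Parva and Lima1 did not pass, and with the replicate number as a block these 6 passed on the deposited values (35 of 38 higher, adjusted p 0.00410 to 0.0326). In that fit 44.8% of all genes passed, 4430 higher and 1122 lower. Pxn (relative change -0.12), Rdx (-0.13) and Anxa2 (0.41) passed neither way.

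**Figure D2:**
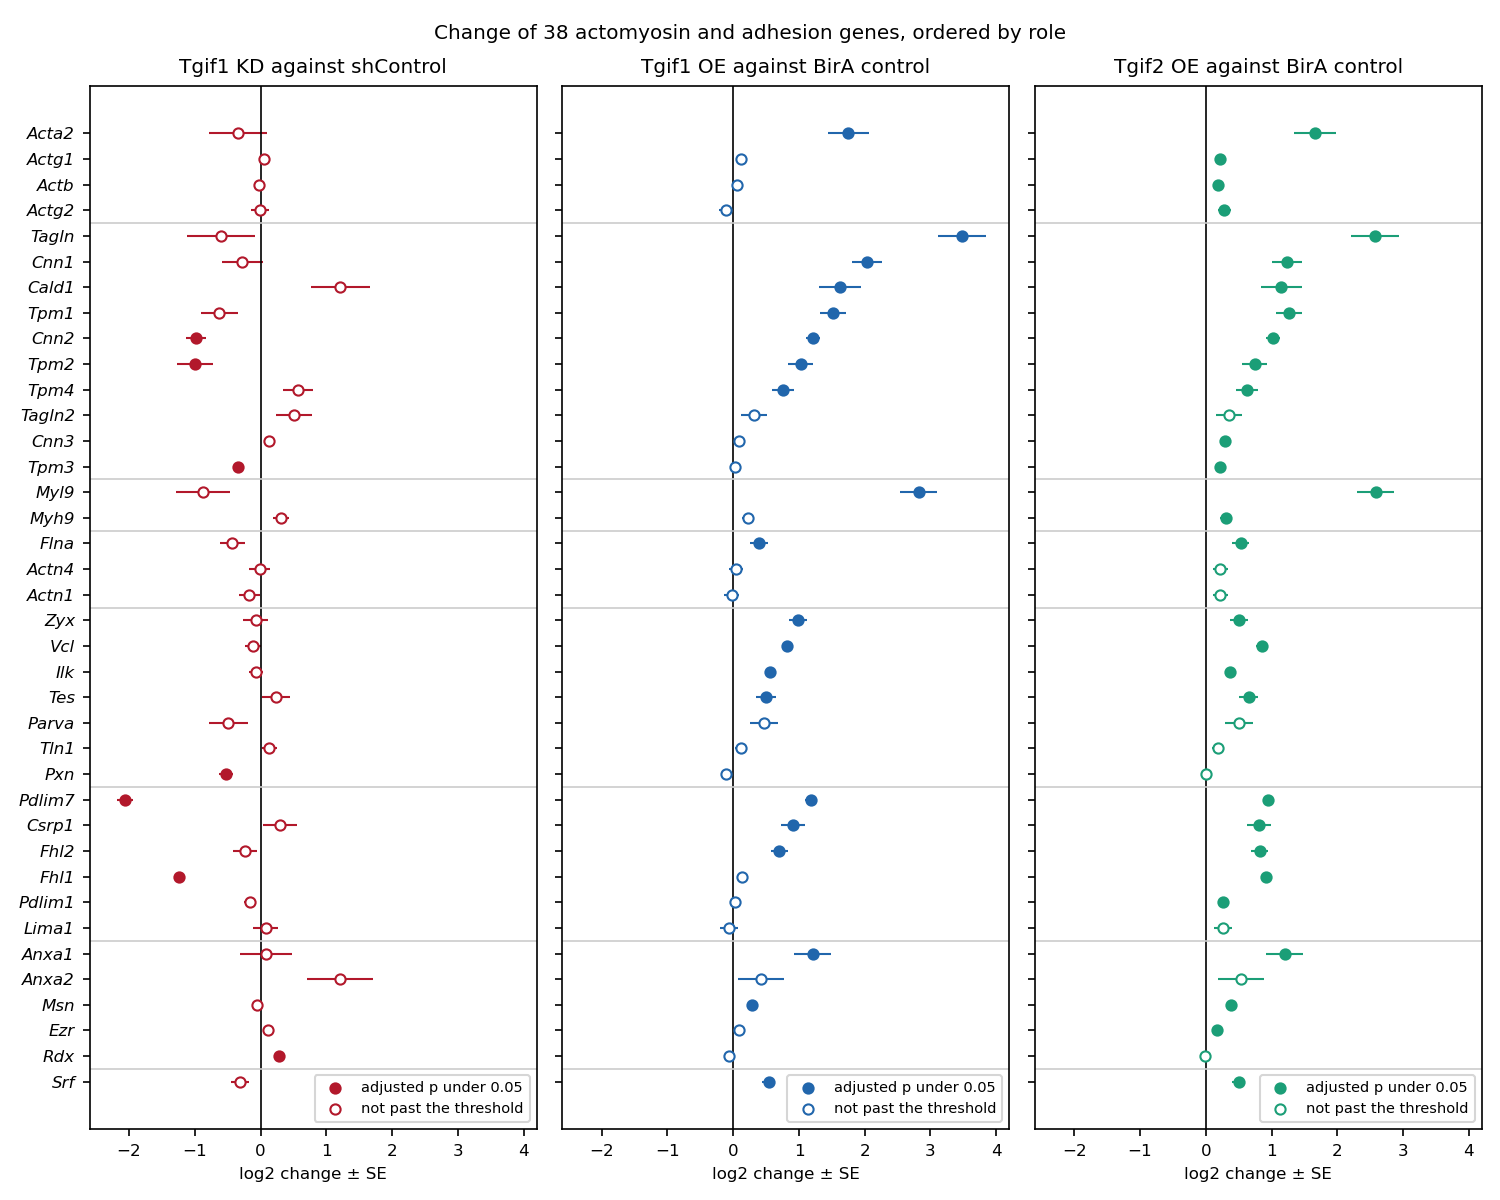
Log2 change with its standard error (horizontal axes) of the 38 genes, grouped by role from the actins at the top to Srf at the bottom, for Tgif1 KD against shControl, Tgif1 OE against BirA control and Tgif2 OE against BirA control. Filled points passed an adjusted p under 0.05 (7, 20 and 29 genes). The OE panels share their BirA control arrays and show the deposited changes.

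The 2 groups labelled OE were also set directly against each other. For Tgif1 OE against Tgif2 OE, 2 of 38 were higher and 6 lower on the deposited values, and 4 higher and 1 lower after quantile normalization. Of all genes, 19.7% passed as deposited, 2.25% higher and 17.4% lower, and 9.97% after quantile normalization, 5.41% higher and 4.55% lower. The groups were separate with Tgif1 OE higher in 1 gene, Zyx (2.7% of all genes), and with it lower in 8 (21.6%, and 24.3% either way). Fhl1 was lower in Tgif1 OE than in Tgif2 OE by 0.69 relative to the median of all genes (deposited -0.79 ± 0.05, 7.08e-07, and 7.81e-06 after quantile normalization). It was lower in both array pairs, with deposited changes of -0.77 in replicates 1 and 2 and -0.81 in replicates 3 and 4.

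Cnn1 (relative change 0.90, deposited 0.80 ± 0.22, 0.0226) and Zyx (0.58, deposited 0.48 ± 0.14, 0.0244) were higher on Tgif1 OE than on Tgif2 OE arrays. Zyx had 7.08, 7.20, 6.96 and 6.91 on Tgif1 OE arrays, against 6.20, 6.29, 6.87 and 6.87 on Tgif2 OE arrays. Its groups did not overlap, yet the gap was 0.90 in replicates 1 and 2 and 0.07 in replicates 3 and 4. The call of Cnn1 was lost without Tgif1 OE replicate 3 or 4 and without Tgif2 OE replicate 1 or 2 (0.0582 to 0.0687). That of Zyx was lost without replicate 1 or 2 of either group (0.0535 to 0.0717). With array pairs averaged the adjusted p was 0.0881 for Cnn1 and 0.1065 for Zyx, and with array pair entered as a random block 0.0892 and 0.07955, so both calls were lost. Each of these fits ended 7 of the 8 calls of this comparison and kept that of Fhl1 (0.00243 and 3.20e-05). After quantile normalization Ilk (0.29, 0.0126) and Pdlim7 (0.35, 0.0120) were also higher.

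The other 5 genes that passed as lower on the deposited values did not pass after quantile normalization. Actg2 had 3.44, 3.41, 3.37 and 3.28 on Tgif1 OE arrays and 3.69, 3.84, 3.77 and 3.80 on Tgif2 OE arrays (relative change -0.30, 0.0107). Tpm3 had 12.55, 12.49, 12.37 and 12.34 on Tgif1 OE arrays and 12.61, 12.58, 12.66 and 12.65 on Tgif2 OE arrays (-0.08, 0.0296). Pdlim1 had 10.28, 10.17, 10.32 and 10.24 on Tgif1 OE arrays and 10.41, 10.44, 10.48 and 10.62 on Tgif2 OE arrays (-0.13, 0.0155). Cnn3 (-0.10) and Actb (-0.03) were the others. With the replicate block 4 were higher and 9 lower, among them Tagln (deposited change 0.91, 0.0102) and Lima1 (-0.33, 0.00534), while 29.8% of all genes passed in that fit. With array pairs averaged, 0 of the 38 were higher and 1 lower, and 9.42% of all genes passed.

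In the Tgif1 knockdown the same genes did not move as a group. Of 38 genes, 1 rose (2.63%) and 6 fell (15.8%), while 25.4% of all genes passed, 12.5% higher and 12.9% lower, and the median change was -0.07, beside -0.05 for all genes. The falls were those of the adaptors Pdlim7 and Fhl1, the filament-binding Tpm2, Cnn2 and Tpm3, and Pxn. The 1 rise was that of Rdx. The Gapdh 5′ minus 3′ difference was -0.10 to -0.08 on Tgif1 KD arrays and -0.22 to -0.21 on shControl arrays. It moved with the knockdown, and its part in these results was not tested.

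Pdlim7 stood at 6.27 and 6.14 on Tgif1 KD arrays, against 8.35 and 8.19 on shControl arrays. On this probe set it fell by 2.06 on the log2 scale (SE 0.12, adjusted p = 2.77e-08), to 4.18-fold lower, while a second, dimmer one gave 0.20 ± 0.15. Fhl1 stood at 7.69 and 7.61 in Tgif1 KD and 8.86 and 8.93 in shControl (-1.24 ± 0.08, 3.71e-08). Both gaps are many times the spread between the paired arrays. Tpm2 had 7.34 and 7.32 in Tgif1 KD and 8.33 and 8.32 in shControl (-0.99 ± 0.27, 0.0142), a call lost without any 1 of the 4 arrays compared (0.0654 to 0.0688). Cnn2 had 7.77 and 7.82 in Tgif1 KD and 8.82 and 8.73 in shControl (-0.98 ± 0.15, 0.000185).

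Pxn, the adhesion scaffold paxillin, had 9.85 and 9.64 in Tgif1 KD and 10.27 and 10.27 in shControl (-0.52 ± 0.11, 0.00173). Tpm3 had 12.09 and 12.16 in Tgif1 KD and 12.48 and 12.45 in shControl (-0.34 ± 0.08, 0.00427). Rdx had 11.21 and 11.32 in Tgif1 KD and 11.03 and 10.94 in shControl (0.28 ± 0.08, 0.0158). The Rdx call was lost without Tgif1 KD replicate 2 (0.133) or shControl replicate 2 (0.125). In 11 of the 38 genes both Tgif1 KD arrays lay above both shControl arrays (30.0% of all genes), and in 19 below (39.1%, and 69.2% either way).

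Several genes that led the overexpression groups were short of the threshold in the knockdown. Tagln had 5.58 and 5.71 in Tgif1 KD and 6.30 and 6.19 in shControl (-0.60 ± 0.51, 0.442). Myl9 had 3.87 and 4.02 in Tgif1 KD and 4.98 and 4.67 in shControl (-0.88 ± 0.40, 0.132). Neither overlapped, and their standard errors rest on a spread pooled over all 5 groups, array pairs included. Acta2 had 5.37 and 5.11 in Tgif1 KD and 5.56 and 5.61 in shControl (-0.34, 0.632), and Cnn1, at 4.44 and 4.73 in Tgif1 KD and 4.65 and 5.09 in shControl, overlapped. In shControl the means of Myl9 (4.82) and Cnn1 (4.87) were already under the lower-tercile cutoff of 5.37. Those of Acta2 (5.58) and Tagln (6.25) were above it. How far a fall could show at such levels was not tested. Actb (13.98 and 13.98 in Tgif1 KD, 14.02 and 14.00 in shControl) and Actg1 (13.87 and 13.82 in Tgif1 KD, 13.79 and 13.79 in shControl) differed by at most 0.05. Srf had 7.54 and 7.23 in Tgif1 KD and 7.62 and 7.77 in shControl (-0.31 ± 0.14, 0.117, and 0.0445 after quantile normalization).

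Cald1 and Anxa2 pointed upward in the knockdown. Cald1 had 10.05 and 10 in Tgif1 KD and 8.80 and 8.82 in shControl (1.21 ± 0.45, 0.0597), and Anxa2 had 9.09 and 9.10 in Tgif1 KD and 7.67 and 8.11 in shControl (1.21 ± 0.50, 0.0920). Neither passed with the pooled spread. Fitted on the knockdown arm alone, 6 of the 38 were higher and 11 lower, while 34.6% of all genes passed in that fit, 2051 higher and 2238 lower.

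Each of Tgif1 KD and Tgif1 OE has controls of its own, so the difference between their effects was tested gene by gene. In 18 of 38 genes (47.4%) the knockdown effect was lower than the Tgif1 OE effect, and in 1, Rdx, it was higher. Of all genes 27.6% passed in this contrast, 14.6% lower and 13.0% higher. The largest differences were those of Tagln (-4.09 ± 0.63, 0.000188), Myl9 (-3.70 ± 0.49, 5.30e-05), Pdlim7 (-3.24 ± 0.15, 2.44e-09) and Cnn1 (-2.31 ± 0.39, 0.000364). Cnn2 (-2.19), Tpm1 (-2.14), Acta2 (-2.09), Tpm2 (-2.02), Fhl1 (-1.38), Zyx (-1.06), Vcl (-0.94), Fhl2 (-0.94), Srf (-0.85), Flna (-0.82), Ilk (-0.64), Pxn (-0.41), Tpm3 (-0.37) and Msn (-0.35) followed. Leaving out 1 array ended the calls of Tpm3 (without Tgif1 KD replicate 1, 0.0523), Flna (without Tgif1 KD replicate 1 or shControl replicate 1, at most 0.0600), Pxn (without Tgif1 KD replicate 2 or either shControl array, at most 0.154) and Rdx (without Tgif1 KD replicate 2 or shControl replicate 2, at most 0.0887).

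For most of these genes the difference came with a rise on the arrays labelled Tgif1 OE and no call in the knockdown. Only Tpm2, Cnn2 and Pdlim7 passed in both, falling in Tgif1 KD and rising in Tgif1 OE, which is 7.89% of the 38 and 2.61% of all genes. None of the 38 rose in both (1.76% of all genes), fell in both (1.05%), or rose in Tgif1 KD and fell in Tgif1 OE (3.27%). Cald1 had upward values in both comparisons (1.21 in Tgif1 KD, not past the threshold, and 1.62 in Tgif1 OE), and its difference of -0.41 ± 0.55 did not pass (0.636). Anxa1 (-1.13, 0.103, and 0.00404 with the replicate block) and Parva (-0.96, 0.0630, and 0.0153 with the block) were short of the threshold without the block.

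**Figure D3:**
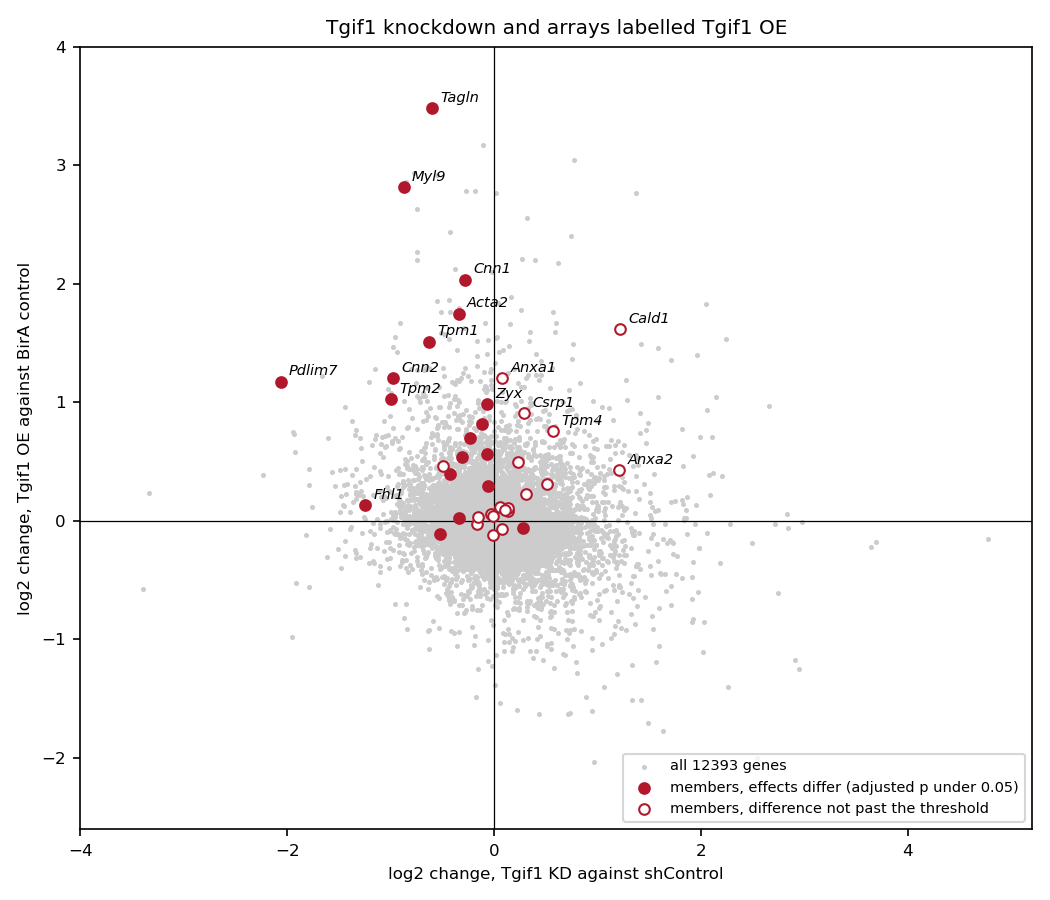
Log2 change in Tgif1 KD against shControl (horizontal axis) and on the arrays labelled Tgif1 OE against BirA control (vertical axis). Grey points are all 12393 genes, and red points are the 38 genes, filled where the 2 effects differed at an adjusted p under 0.05 (19 genes). Among the 38 genes, Tagln and Myl9 lie at the top left of centre, Pdlim7 farthest left and Cald1 to the upper right.

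The 38 genes had 82 probe sets in all. More than 1 was at hand for 25 of the genes, and some of these differed. For Pdlim7 the second probe set gave 0.20 ± 0.15 in the knockdown (adjusted p = 0.404 in a fit of all probe sets), against -2.06 for the brighter one, while both rose on the arrays labelled Tgif1 OE (1.18 and 0.99). Tpm1 gave -0.63, 1.06 and 0.11 from its 3 probe sets in the knockdown, and 1.51, 1.18 and 0.92 on the arrays labelled Tgif1 OE. The talin gene Tln1 had a second probe set that rose in the knockdown by 0.96 ± 0.10 (8.59e-06), where the brighter one gave 0.13. On the arrays labelled Tgif1 OE a dimmer Tpm3 probe set gave -0.34 ± 0.10 (0.0261), below BirA control. Dimmer sets of Parva (1.01, 0.00135), Tln1 (0.23, 0.0362) and Myh9 (0.25, 0.0137) rose there. In the knockdown a second Tagln2 set rose by 0.67 ± 0.16 (0.00649), and an Actn1 set gave -0.49 ± 0.15 (0.0312). The brighter sets of these genes, counted above, did not pass in those comparisons. What the separate probe sets of all these genes read was not tested.

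Other genes had probe sets that ran together. The 3 Cald1 probe sets gave 1.21, 1.08 and 1.36 in the knockdown and 1.62, 1.19 and 1.62 on the arrays labelled Tgif1 OE, and the dimmest of them passed in the knockdown (0.0184). Of the 4 Tpm2 probe sets all were negative in the knockdown, 2 of them past the threshold, and 3 rose on the arrays labelled Tgif1 OE. The second Acta2 probe set was dim, at 3.32 on Tgif1 OE and 3.31 on BirA control arrays, and showed no change (0.01). The second Zyx and Srf probe sets gave 0.28 and 0.21 on the arrays labelled Tgif1 OE and did not pass. For 8 genes, Acta2, Cald1 and Srf among them, the probe set that stands for the gene has a name ending in _s_at or _x_at, which can bind several transcripts. Without these 8 genes, 17 rose in Tgif1 OE and 0 fell.

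**Figure D4:**
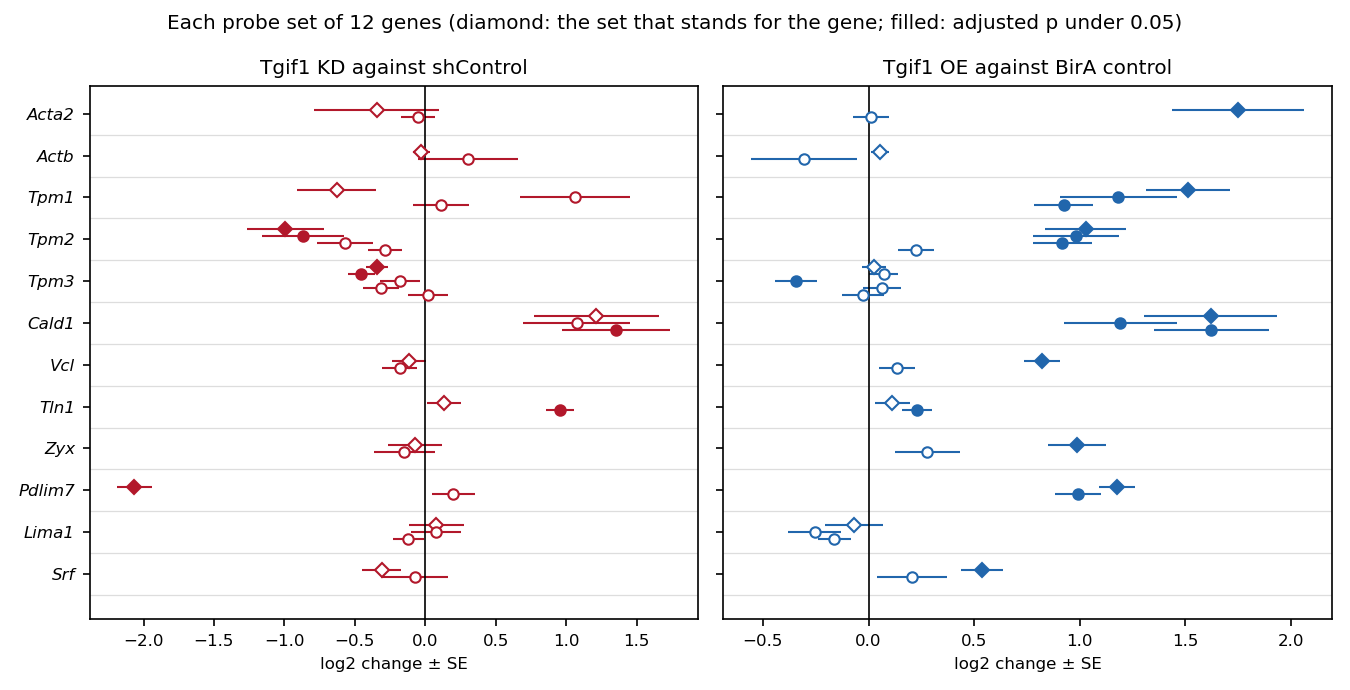
Log2 change with its standard error (horizontal axes) of every probe set of 12 genes, for Tgif1 KD against shControl (left) and Tgif1 OE against BirA control (right). Diamonds mark the probe set that stands for the gene, and filled symbols passed an adjusted p under 0.05 in a fit over all probe sets. The Pdlim7, Tpm1 and Tln1 probe sets lie apart in the knockdown, and the Cald1 probe sets lie together.

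Within the overexpression arm, replicates 1 and 2 and replicates 3 and 4 gave changes of the same sign for each of the 20 genes that rose in Tgif1 OE. Tagln gave 3.27 in the first pair and 3.69 in the second, Myl9 gave 2.89 and 2.75, Zyx 1.14 and 0.84, and Tpm4 0.55 and 0.96. All 20 genes passed in each pair fitted alone. In Tgif2 OE the gap between pairs was wider, with Tagln at 1.92 in replicates 1 and 2 and 3.23 in replicates 3 and 4, Cald1 at 0.56 and 1.74, and Tpm4 at 0.16 and 1.09 on the deposited scale.

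Anxa2, a membrane-bound annexin that binds actin, turned its direction between pairs. It stood at 7.58, 7.53, 8.47 and 8.37 on Tgif1 OE arrays and 7.62, 7.55, 8.53 and 8.67 on Tgif2 OE arrays, against 8.32, 8.09, 6.92 and 6.92 on BirA control arrays. The change was thus -0.65 in replicates 1 and 2 and 1.51 in replicates 3 and 4 for Tgif1 OE, and -0.62 and 1.68 for Tgif2 OE. BirA control was the higher group in the first pair and the lower in the second, and pooled over pairs the gene did not pass in either comparison (0.462 and 0.256).

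**Figure D5:**
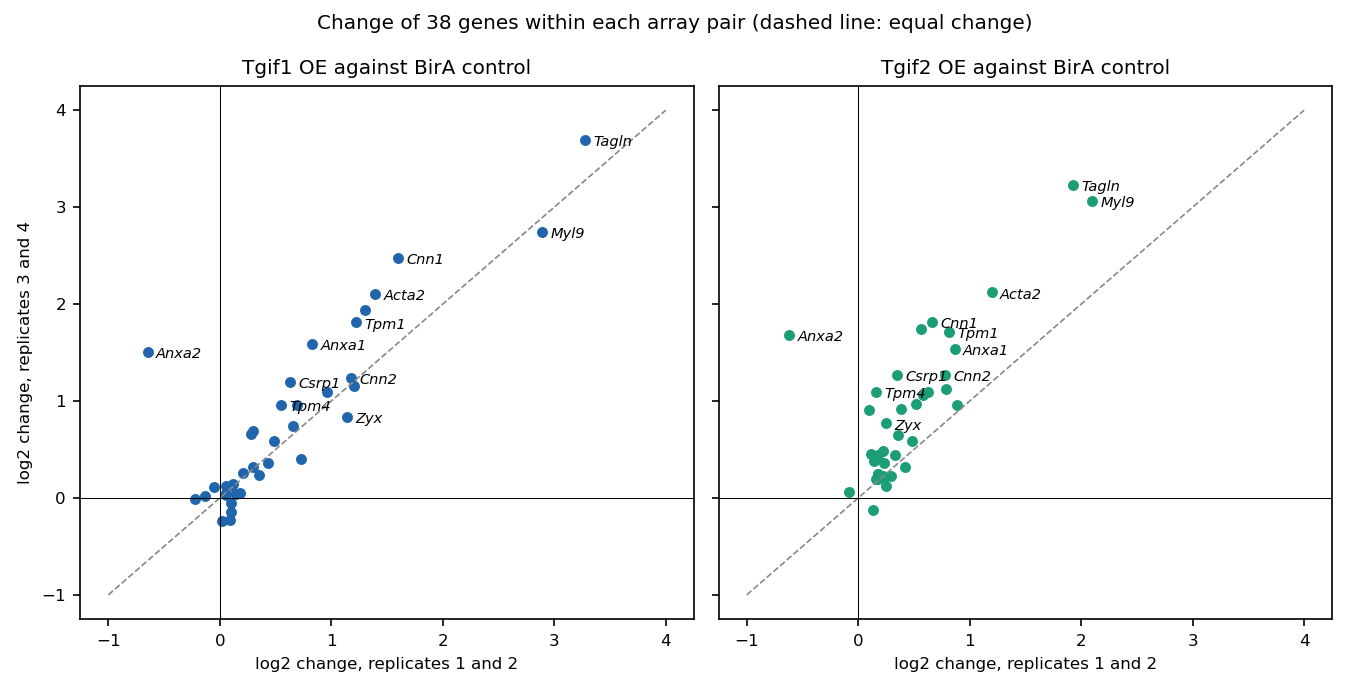
Log2 change of the 38 genes in replicates 3 and 4 (vertical axis) against replicates 1 and 2 (horizontal axis), for Tgif1 OE against BirA control (left) and Tgif2 OE against BirA control (right). The dashed line marks equal change. Anxa2 lies in the upper left of both panels, and Tagln and Myl9 lie near the line for Tgif1 OE and well above it for Tgif2 OE.

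Sorted by promoter, the 8 genes with a CArG box in a window had a median change of 0.62 on the arrays labelled Tgif1 OE, with 5 higher and 0 lower, and the 25 with a window and no box had 0.43, with 14 higher and 0 lower. Among the other genes of the array, 165 had a box in a window, and 15.2% of them were higher and 8.48% lower in Tgif1 OE, against 11.2% and 9.76% of 9689 genes with none. In the knockdown 12.7% of the 165 were higher and 13.3% lower, against 12.8% and 13.1% of the 9689. In Tgif2 OE, as deposited, 26.7% of the 165 were higher and 6.67% lower, against 28.4% and 6.9% of the 9689. Of 16 members with TGTCA 9 were higher and 0 lower in Tgif1 OE, with a median change of 0.62. Of 17 without it 10 were higher and 0 lower, with a median change of 0.40. Among the other genes, 9.4% of 4224 with TGTCA were higher and 10.7% lower, against 12.7% and 8.99% of 5630 without it. Their median changes were 0.01 and 0.02. These are counts, with no test. Only exact matches within a window were counted, so a gene without a CArG box there may hold a variant or more distant one.

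A further 78 genes of the same machinery, listed by role, were less uniform. On the arrays labelled Tgif1 OE 25.6% of the 78 were higher and 6.41% lower, against 11.4% and 9.51% of all genes. Their median change was 0.10. Of 25 genes of filament turnover and capping 8 rose and 0 fell, led by the filament-severing Gsn (1.67 ± 0.40), the monomer-binding Pfn2 (0.85 ± 0.08) and the Arp2/3 subunit gene Arpc5 (0.57 ± 0.15). Of 22 other adhesion genes 9 rose and 1 fell, led by Lpp (0.95 ± 0.11), the scaffold gene Bcar1 (0.85 ± 0.11) and Pdlim3 (0.75 ± 0.15).

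Of 20 genes for SRF cofactors, YAP and TEAD factors and immediate early SRF targets, 1 rose and 2 fell in Tgif1 OE: the YAP relative Wwtr1 (0.27 ± 0.09) rose, and the immediate early genes Egr1 (-0.35 ± 0.07) and Ier2 (-0.27 ± 0.08) fell. Of 11 other smooth and striated contractile genes, the skeletal and cardiac actins Acta1 (1.29 ± 0.25) and Actc1 (0.76 ± 0.07) rose, and 2 fell, led by the light chain gene Myl4 (-0.71 ± 0.13). Actin isoforms are close relatives, and their probe sets may not separate them fully.

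In Tgif2 OE, after quantile normalization, the counts higher and lower were 7 and 0 of 25 for turnover, 9 and 0 of 22 for other adhesion genes, 3 and 0 of 20 for the SRF and YAP list and 0 and 1 of 11 for contractile genes. As deposited they were 18 and 0, 11 and 0, 4 and 0, and 2 and 0. Of all genes 13.8% were higher and 13.0% lower after quantile normalization, and 28.7% and 6.69% as deposited. The adhesion gene Pdlim4 (1.12 ± 0.10) and the factor gene Tead3 (1.02 ± 0.10) had the largest deposited rises of their lists. In the knockdown 11.5% of the 78 were higher and 12.8% lower, near the shares of all genes. Pfn2 (1.15 ± 0.11), Lpp (1.11 ± 0.15) and the immediate early gene Fos (1.93 ± 0.23) rose, and Pdlim4 (-1.10 ± 0.14) and the atrial light chain gene Myl7 (-1.03 ± 0.27) fell.

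Actomyosin genes are also abundant in fibroblasts and smooth muscle, and markers of these cells were read on the same arrays. In bulk RNA, more cells of a type and more RNA per cell cannot be told apart. Of all genes 11.4% were higher and 9.51% lower in Tgif1 OE (20.5% either way after quantile normalization). In Tgif2 OE these shares were 28.7% and 6.69% as deposited, and 13.8% and 13.0% after quantile normalization. Of 15 fibroblast markers 6 rose and 0 fell in Tgif1 OE (4 and 0 after quantile normalization), led by Col5a2 (1.09 ± 0.25), and 5 rose and 0 fell in Tgif2 OE (2 and 0 after quantile normalization). Their summed linear intensity was 450.4 to 566.1 on Tgif1 OE, 446.4 to 596.4 on Tgif2 OE and 354.1 to 413.5 on BirA control arrays. It was 523.6 to 535.3 in Tgif1 KD and 669.1 to 695.1 in shControl. By group mean, 11 of the 15 were in the lower tercile of all genes in Tgif1 OE, 12 in Tgif2 OE and 13 in BirA control, with Col1a1, Col3a1, Lum and Dcn among them in each. The part of such cells in the rise of the 38 genes was not tested.

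Of 8 smooth muscle markers, Cnn1 and Acta2, both on the list of 38, rose in Tgif1 OE, and Myh11, Myocd, Lmod1, Smtn, Des and Synpo2 did not pass (-0.05 to 0.24). Myh11, Myocd, Lmod1 and Synpo2 were at 3.98 to 4.73 on Tgif1 OE arrays and 3.92 to 4.79 on BirA control arrays by group mean. All 4 were in the lower tercile of genes. Smtn and Des were above it, at 6.68 and 7.0 on Tgif1 OE arrays and 6.44 and 6.88 on BirA control arrays. Of 8 skeletal and cardiac markers 2 rose in Tgif1 OE, Acta1 and Myh6 (0.66 ± 0.09), and of 7 blood markers 0 rose and 1 fell. Of all genes 11.4% were higher and 9.51% lower. Of 9 ES cell markers 6 fell in Tgif1 OE, among them Esrrb (-1.08 ± 0.22) and Nanog (-0.69 ± 0.17), and their summed intensity was 45580 to 51109 on Tgif1 OE and 54087 to 60215 on BirA control arrays. In Tgif2 OE 1 of the 9 rose and 1 fell as deposited, beside 28.7% and 6.69% of all genes. After quantile normalization 0 rose and 2 fell there, beside 13.8% and 13.0%. Their deposited sum was 53783 to 61690 on Tgif2 OE arrays.

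The same marker lists were read in the knockdown, where 12.5% of all genes were higher and 12.9% lower. Of the 9 ES cell markers 2 rose and 0 fell in Tgif1 KD, and their summed intensity was 71953 to 73459 on Tgif1 KD arrays, against 61438.5 to 61465 on shControl arrays. Of 15 fibroblast markers 2 rose and 1 fell, of 8 skeletal and cardiac markers 0 rose and 3 fell, of 7 blood markers 0 rose and 1 fell, and of 8 smooth muscle markers 0 passed either way. The part of these shifts in the knockdown results was not tested.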

How the data were processed

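Total RNA of 16 samples was read on Affymetrix Mouse 430A 2.0 arrays. Each deposited log2 intensity was made by the authors with RMA, per the submitters' processing notes, which name limma too for the Tgif2 samples and no versions. Of 22690 probe sets, 64 were controls, 20380 carried 1 symbol, 691 several and 1555 none in the platform annotation.

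For 12393 genes, group means were estimated jointly over the 16 arrays by limma 3.58.1 (R 4.3.3; moderated tests, two-sided, Benjamini-Hochberg over all genes, threshold 0.05). The number of arrays limits the precision. On simulated data with 2 arrays a group, 98% of genes changed by 1 on the log2 scale were called in Tgif1 KD and 38% of those changed by 0.5. With 4 arrays, in Tgif1 OE, the shares were 100% and 76%. The simulated arrays were independent of each other, without the array pairs seen in the overexpression arm. These shares therefore do not describe detection under that pairing.

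In the overexpression arm, deviations from the group mean correlated at 0.32 to 0.56 between arrays of the same number in 12 comparisons (by array pair, 0.32 to 0.58 within and -0.57 to -0.32 across), and in the knockdown arm at -0.0044. An array's own number was its best match in 5 of 24 cases, so array pairs were also used.

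Genes past the threshold are named, and values per array are given for the 12 largest changes of a comparison, the actins and Srf. The members and lists were chosen with earlier results of these data known. Alternatives were quantile normalization, trended variance, the mean of probe sets, no dim genes, other arrays in the fit, the replicate block, array pairs and leaving out each array. CArG and TGTCA were searched in RefSeq promoter windows. One further list of regulators is not reported here.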

Additional observations from a re-analysis of the deposited data

Results flagged for a closer look

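Cnn2 on BirA control replicate 1 (9.0) lay below the other 3 arrays of its group (nearest 9.04), a gap of 0.904 of the group's range. Fhl1 on the same array (8.85) lay below the others (nearest 8.93), a gap of 0.881 of the range. Both gaps are past the usual limit of Dixon's test for 4 values, which chance passes in about 1 of 20 groups. Here 2 of 114 groups did, and both gaps are small beside the changes of Cnn2 and Fhl1 that passed the threshold.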

How the results depend on the processing

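For the arrays labelled Tgif1 OE against BirA control, 20 genes were higher and 0 lower. Leaving out each array gave 18 to 21 higher and 0 lower, and replicates 1 and 2 alone or replicates 3 and 4 alone each gave 1 lower. All 20 calls were kept with array pairs averaged, where 16.3% of all genes passed. With array pair entered as a random block 2 of the 20 were lost, and 11.5% of all genes passed. For Tgif2 OE against BirA control, 29 were higher, 28 to 30 when arrays were left out, and replicates 1 and 2 alone gave 1 lower. Array pairs averaged ended 4 of the 29 calls, and array pair as a random block ended 3. In these fits 29.2% and 20.1% of all genes passed, against 35.4% in the main fit. Actb turned to -0.0875 in Tgif2 OE with the mean of its probe sets (adjusted p = 0.634). For Tgif1 KD against shControl, with 1 higher and 6 lower, the mean of probe sets gave 3 higher, the fit of only the groups compared 6 higher and 11 lower, and the replicate block 4 higher and 9 lower. Of all genes 25.4% passed in the main fit and 25.9% with the mean of probe sets. The share of all genes was 34.6% in the fit of only the groups compared and 34.2% with the replicate block. Leaving out arrays gave 0 to 3 higher and 5 to 6 lower.

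Tgif1 OE against Tgif2 OE was the least settled comparison by these counts. Against 2 higher and 6 lower, quantile normalization gave 4 and 1, the mean of probe sets 1 higher, only the groups compared 0 and 3, the replicate block 4 higher, replicates 1 and 2 alone 11 and 3, and replicates 3 and 4 alone 10 lower. Array pairs averaged gave 0 and 1, the pair as a random block 0 and 1, and leaving out arrays 0 to 4 higher and 4 to 6 lower. Of all genes 19.7% passed as deposited, 9.97% after quantile normalization, 21.4% with the mean of probe sets and 13.7% with only the groups compared. The share was 29.8% with the replicate block, 24.5% in replicates 1 and 2 alone and 19.4% in replicates 3 and 4 alone. With array pairs averaged it was 9.42%, and with the pair as a random block 4.75%. Fhl1 passed in each of these fits, and the cause of the other shifts was not tested.

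For the difference between the Tgif1 KD and Tgif1 OE effects, with 1 higher and 18 lower, the mean of probe sets and replicates 1 and 2 alone each gave 2 higher, and leaving out arrays gave 0 to 1 higher and 16 to 19 lower. Of all genes 27.6% passed in the main fit, 28.4% with the mean of probe sets and 39.1% in replicates 1 and 2 alone. Msn turned to 0.108 with the mean of probe sets (0.597). The probe-set fit, the counts without _s_at and _x_at sets and the list counts were chosen after seeing the data. With 2 arrays a group the knockdown calls rest largely on the spread of the other groups.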
